A study of Mus musculus with 6 samples.

Results

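The 45 genes described here supply the cell with amino acids or belong to the integrated stress response, and they were taken as a list of symbols. They comprise 10 sensors and factors of the response, 14 enzymes of amino acid synthesis and one-carbon metabolism, 9 amino acid transporters and 12 tRNA synthetases. Of these, 44 were measured among 18193 genes tested, each by its brightest probe set, the one with the highest mean over all arrays. Pycr1 was not analysed here. RNA came from lineage-negative, cKit-positive, Sca1-positive (LSK) bone marrow cells, the fraction that holds hematopoietic stem cells and multipotent progenitors, and was measured on 1 Affymetrix array per mouse. The 3 WT mice carried Mx1-cre, and the 3 N1IC mice carried Mx1-cre with lox-stop-lox N1-IC, which lets Cre switch on the active intracellular part of Notch1. Mx1-cre responds to interferon and so is not confined to LSK cells, and the share of LSK cells that recombined is not given in the sources used here. Both groups were 5 weeks old and, per the labels' protocols, had received 3 injections of polyIC (20 mcg per g), an inducer of interferon, from an age of 21 days, with sorting 2 weeks after the last. The treatment text names floxed Ncstn alleles, while genotype and source labels name N1-IC. The WT mice were 2 males and 1 female and the N1IC mice 3 females, so sex and group are unbalanced.

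The integrated stress response begins with kinases that phosphorylate the translation factor eIF2 alpha: Eif2ak4 (GCN2) senses uncharged tRNA and Eif2ak3 (PERK) senses misfolded protein in the endoplasmic reticulum. General translation falls while translation of the Atf4 mRNA rises, so the amount of Atf4 mRNA does not by itself report Atf4 activity. Atf4 pairs with C/EBP proteins on a composite DNA element and induces amino acid transporters, synthesis enzymes, tRNA synthetases and further factors such as Ddit3 (CHOP), Trib3 and Chac1.

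Promoter windows of RefSeq on GRCm38.p6, from 250 bases before to 50 after each gene's start, were searched on both strands for TGATGNAA, the core of that element. Of the 37 members with a window, 13 held it (35.1%), against 4.51% of 27025 genes with windows and 3.24% of the 14452 that were also tested on the arrays. The 13 were Atf3, Chac1, Trib3, Asns, Got1, Pycr1, Slc7a11, Slc1a4, Aars, Gars, Iars, Tars and Yars. Among tRNA synthetases, 5 of 8 listed members with a window held it, and 0 of 8 other cytosolic synthetases and scaffold genes and 0 of 14 mitochondrial synthetases did. The E-box CACGTG, bound by Myc among others, was in 5 members (13.5%, against 8.09% of all genes and 10.2% of those tested), and TGGGAA, the core that the Notch partner Rbpj binds, in 11 (29.7%, against 28.3% and 27.5%). None of these matches in the members overlapped a TGATGNAA match, and a match is a description of letters, not of binding. The windows below are those of the measured members with a TGATGNAA match that passed the test described further on (Trib3 and Slc7a11), followed by the 2 others with the largest fold changes (Chac1 and Atf3). They lie at chr2:152344011-152344310 on the minus strand, chr3:50443564-50443863 on the minus strand, chr2:119350992-119351291 on the plus strand and chr1:191183284-191183583 on the minus strand. Each reads 5′ to 3′ along its gene, and capitals mark each TGATGNAA match on either strand.
Trib3: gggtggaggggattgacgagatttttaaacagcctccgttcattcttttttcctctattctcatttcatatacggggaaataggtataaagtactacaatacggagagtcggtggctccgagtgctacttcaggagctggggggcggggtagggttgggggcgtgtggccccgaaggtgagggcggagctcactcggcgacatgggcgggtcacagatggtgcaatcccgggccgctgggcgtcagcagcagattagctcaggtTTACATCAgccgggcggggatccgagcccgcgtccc
Slc7a11: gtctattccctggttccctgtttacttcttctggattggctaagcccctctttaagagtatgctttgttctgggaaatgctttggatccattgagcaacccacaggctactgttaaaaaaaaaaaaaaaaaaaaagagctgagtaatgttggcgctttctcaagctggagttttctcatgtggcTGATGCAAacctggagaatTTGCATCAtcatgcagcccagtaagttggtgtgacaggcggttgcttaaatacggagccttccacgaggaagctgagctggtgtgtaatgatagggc
Chac1: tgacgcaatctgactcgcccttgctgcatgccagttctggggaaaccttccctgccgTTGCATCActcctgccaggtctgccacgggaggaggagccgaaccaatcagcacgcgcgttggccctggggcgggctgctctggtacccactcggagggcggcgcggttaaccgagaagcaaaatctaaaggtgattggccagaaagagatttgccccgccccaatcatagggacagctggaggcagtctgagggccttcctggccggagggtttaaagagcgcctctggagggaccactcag
Atf3: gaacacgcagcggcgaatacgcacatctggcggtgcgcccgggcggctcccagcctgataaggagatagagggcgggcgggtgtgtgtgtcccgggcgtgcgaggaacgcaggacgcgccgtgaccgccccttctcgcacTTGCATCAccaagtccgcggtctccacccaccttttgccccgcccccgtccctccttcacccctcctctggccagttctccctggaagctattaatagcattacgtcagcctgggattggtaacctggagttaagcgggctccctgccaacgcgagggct
The Slc7a11 window held 2 matches, TGATGCAA with its first base 66 before the start and TTGCATCA with its first base 47 before the start. In Chac1 and Atf3 the match read TTGCATCA, at -193 and -110, and in Trib3 it read TTACATCA with its first base at position 15 of the transcript.

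Few of these genes were called different between N1IC and WT cells, and at most 1 member of each role was called. By limma with Benjamini-Hochberg adjustment over all genes at 0.05, 1 member rose and 2 fell, or 6.82% of 44, while 11.8% of all genes tested were called (3.47% higher and 8.31% lower). The riser was Slc7a11, a cystine transporter, and the fallers were Trib3, a pseudokinase that restrains Atf4 and Akt, and Cars, the cysteinyl-tRNA synthetase. The share of members called was thus not above that of all genes, and the median log2 fold change was 0.03 over the members and -0.01 over all genes. At an unadjusted p of 0.05 the count was 9 of 44, against 26.6% of all genes. The 3 N1IC arrays lay wholly above the 3 WT arrays for 9 members and wholly below for 3, together 27.3% of the members, against 32.8% of all genes (13.1% above and 19.7% below). The 95% interval of the log2 fold change lay between -0.5 and 0.5 for 25 of the 44 members (52.5% of all genes) and between -1 and 1, a change of less than 2-fold, for 36 (80.5% of all genes). Fewer cells of a type and less RNA per cell cannot be told apart in such sorted bulk samples.

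**Figure D1:**
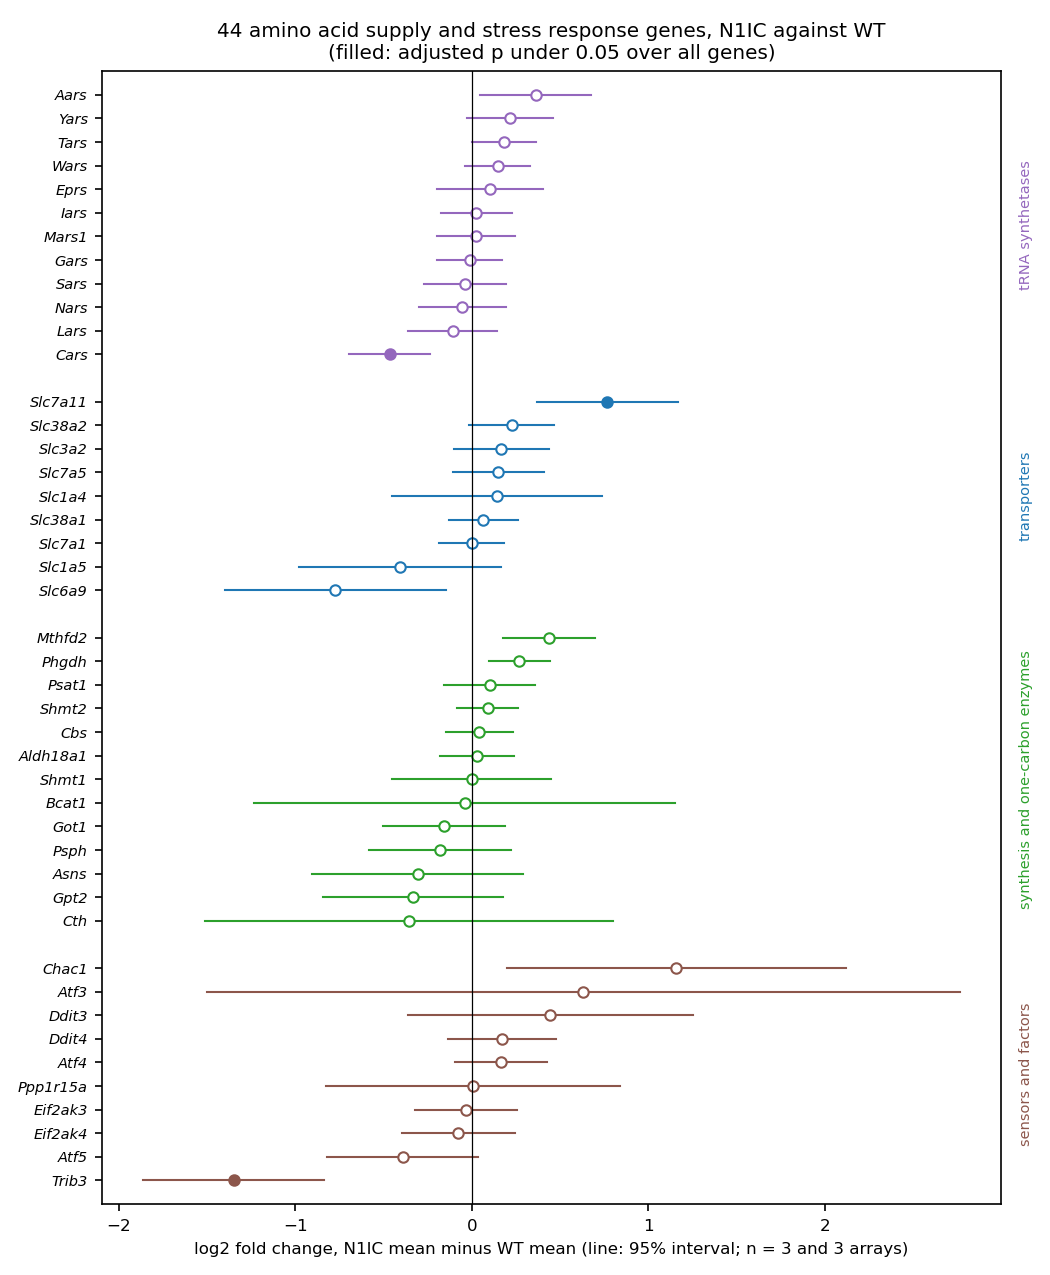
Log2 fold change of each of the 44 measured members, N1IC mean minus WT mean, with its 95% interval as a line (3 arrays per group), grouped and coloured by role; filled points passed the adjusted p of 0.05 over all genes. Trib3 and Cars lie below 0 and Slc7a11 above it as the filled points, all 12 tRNA synthetases lie within -0.47 and 0.36, and Atf3 has the widest interval, from -1.50 to 2.76.

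The arrays' median intensity lay between 88.99 and 92.45, and correlations over probe sets lay between 0.985 and 0.992 within groups and between 0.968 and 0.975 across them. The second principal component held 14.9% of the variance and set WT replicate 1 against the remaining WT arrays. Kit, which the sort used, was measured at 11.94, 11.58 and 11.76 in WT and 11.57, 11.51 and 11.45 in N1IC, with a log2 fold change of -0.25 that was not called, while Ly6a (Sca1) was not analysed here. Lists of markers moved between the groups. Of 12 T-lineage markers 9 were higher in N1IC, with summed intensities of 30290 to 35982 against 2490 to 4323 in WT. Of 7 B-lineage markers 6 were lower (3440 to 3980 against 16364 to 26505), of 5 megakaryocyte markers 4 were lower (882 to 1302 against 5797 to 7821), of 7 LSK markers 6 were lower (9346 to 10051 against 23032 to 27843), of 9 markers of mature neutrophils and monocytes 2 were lower (23406 to 33937 against 29987 to 70137) and of 7 mast cell markers 2 were higher (9032 to 14728 against 1610 to 3844). Macrophage markers had 2 of 7 higher (1285 to 2935 against 1332 to 2823) and erythroid markers 0 of 6 called, with 0 at an unadjusted p under 0.05 (2797 to 6180 against 1859 to 5600). Of 17 cell division genes, which can bear on the demand for amino acids, none was called by limma and 1 had an unadjusted p under 0.05, and their summed intensity was 89393 to 91671 in N1IC and 90368 to 92057 in WT. The part of these marker shifts in the results on the members was not tested.

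Among the 10 sensors and factors, 1 fell and none rose (10% called, against 11.8% of all genes), and the median log2 fold change was 0.09. Trib3 stood at 7.42, 7.82 and 8.27 in WT and at 6.50, 6.50 and 6.46 in N1IC (log2 intensity). All N1IC arrays lay below all WT arrays, and they lay close together, with an SD of 0.02 against 0.42 in WT. Its level was 2.55-fold lower (log2 fold change -1.35 ± 0.21, SE, n = 3), and limma's adjusted p was 0.013. Its brightest probe set is of the kind (x_at) whose probes may match other transcripts. The other Trib3 probe set, which is not, gave -1.22 with an adjusted p of 0.0295 over all probe sets (7.92% of probe sets called). Without N1IC replicate 1 the adjusted p was 0.051, and with sex as a covariate it was 0.124 at a log2 fold change of -1.34, within a range of 0.00584 to 0.124 over 17 alternatives.

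Chac1, which degrades glutathione and is among the genes most strongly induced by Atf4, stood at 4.78, 6.16 and 5.67 in WT and at 6.94, 6.19 and 6.95 in N1IC. The groups did not overlap, but WT replicate 2 lay next to N1IC replicate 2. Its log2 fold change of 1.16 ± 0.39 (SE, n = 3), or 2.23-fold, did not pass limma's test (adjusted p = 0.125), and its 95% interval ran from 0.20 to 2.12. Without WT replicate 1 it was 0.78, and with sex as a covariate 0.54. Chac1 and Trib3, both targets of Atf4 with a match to its element, thus stood on opposite sides of 0.

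Atf4 itself was bright on all arrays, at 12.82, 12.91 and 13.01 in WT and 13.07, 12.93 and 13.24 in N1IC. The groups overlapped on this brightest probe set. The log2 fold change was 0.17, with a 95% interval from -0.09 to 0.43 and 0.17 to 0.19 over its 3 probe sets. On a dimmer Atf4 probe set, of the x_at kind, N1IC lay wholly above WT at 0.18, with an adjusted p of 0.267 over all probe sets. Atf3, a stress-induced repressor, stood at 8.65, 11.15 and 11.34 in WT and 11.27, 9.81 and 11.95 in N1IC. It differed more within the groups than between them, with a log2 fold change of 0.63, a range of 2.69 among WT arrays and 2.13 among N1IC arrays, and a larger pooled SD in only 0.5% of all genes. Without WT replicate 1 its log2 fold change was -0.23. Ddit3, which promotes cell death under lasting stress, stood at 9.78, 10.58 and 10.89 in WT and 10.88, 10.47 and 11.23 in N1IC, with a log2 fold change of 0.44, or 0.12 without WT replicate 1. Ppp1r15a (GADD34), which directs the phosphatase that ends the response, stood at 11.55, 12.03 and 12.25 in WT and 12.22, 11.25 and 12.38 in N1IC, with a log2 fold change of 0.01.

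These inducible factors were low on the same arrays within each group. Of Atf4 and 7 factors (Atf3, Atf5, Ddit3, Ddit4, Trib3, Chac1 and Ppp1r15a), 7 of 8 had their lowest WT value on WT replicate 1, which was lowest for 36.7% of all genes. For N1IC replicate 2 the count was 6 of 8, against 28.8% of all genes. This pattern was noticed after the values were seen and is given without a test. Summed intensity of the neutrophil and monocyte markers was 29987 on WT replicate 1 and 70137 and 69248 on the other WT arrays. On the N1IC arrays it was 23406, 28965 and 33937. Macrophage markers summed to 1332 on WT replicate 1 and 1285 on N1IC replicate 2, and mast cell markers to 1610 and 9032, each the lowest of its group. WT replicate 1 was also the lowest WT array for the T-lineage, B-lineage, erythroid and megakaryocyte markers, and N1IC replicate 2 was not the lowest N1IC array for those 4 lists. The part of these markers in the low factor levels was not tested. Ddit4 (REDD1), an inhibitor of mTORC1, varied less, from 12.73 to 13.11 in WT and from 12.94 to 13.17 in N1IC. Atf5, a relative of Atf4 that acts on mitochondrial stress, had a log2 fold change of -0.39 (limma, adjusted p = 0.224). The kinases differed little, with a log2 fold change of -0.03 for Eif2ak3 (95% interval -0.32 to 0.26) and -0.08 for Eif2ak4 (-0.39 to 0.24). A dimmer Eif2ak3 probe set lay at 5.82 to 5.97 in WT and 6.15 to 6.32 in N1IC, at 0.37 with an adjusted p of 0.0698 over all probe sets.

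**Figure D2:**
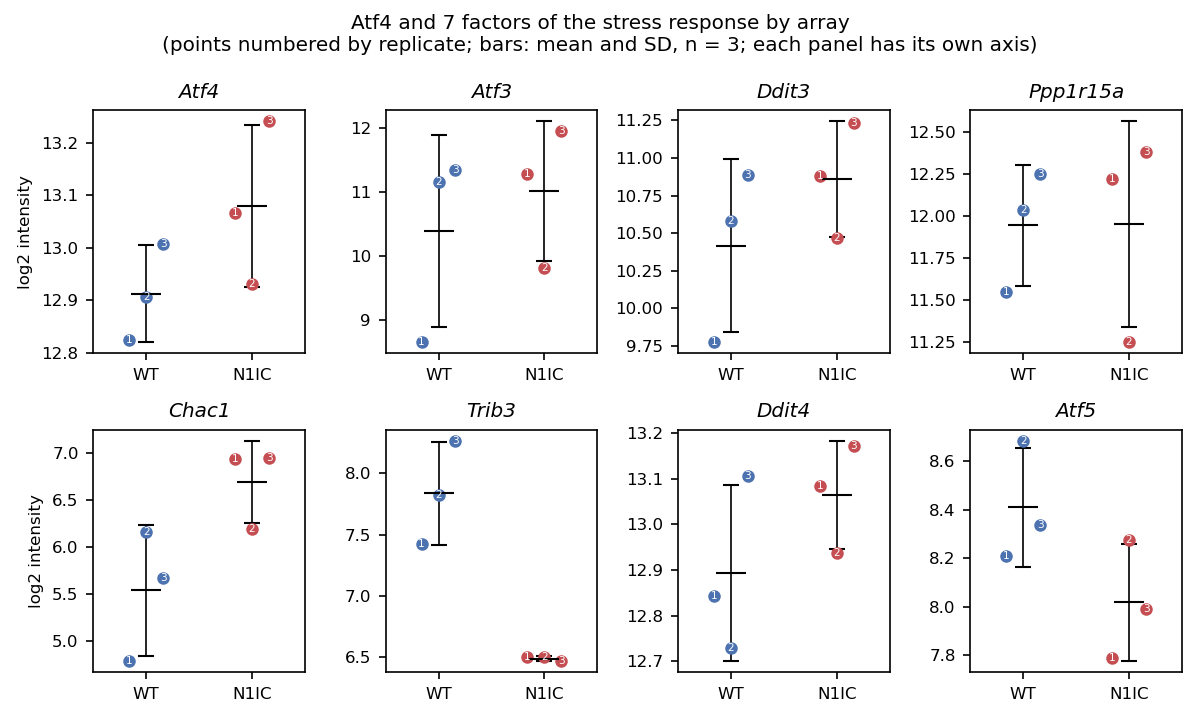
Log2 intensity of Atf4 and 7 factors of the stress response on each array (points, numbered by replicate), with the mean and SD of each group as bars (n = 3); each panel has its own axis. WT replicate 1 and N1IC replicate 2 are the lowest of their groups for Atf4, Atf3, Ddit3, Ppp1r15a and Chac1, and the 3 N1IC values of Trib3 lie together near 6.50, below all WT values.

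None of the 13 measured enzymes of amino acid synthesis and one-carbon metabolism passed limma's test at an adjusted p of 0.05, and 2 had an unadjusted p under 0.05. Of all genes, 11.8% passed and 26.6% had an unadjusted p under 0.05. Log2 fold changes of the enzymes ran from -0.36 to 0.44 with a median of 0.00. The 2 enzymes with the smallest p belong to the route from glucose through serine to mitochondrial folate. Phgdh, which takes the first step of serine synthesis, stood at 12.91, 12.92 and 12.89 in WT and 13.11, 13.20 and 13.22 in N1IC. Mthfd2, which oxidises folate-bound one-carbon units in mitochondria, stood at 11.27, 11.31 and 11.21 in WT and 11.50, 11.77 and 11.82 in N1IC. Every N1IC array was above every WT array for both genes. The log2 fold changes were small, 0.27 ± 0.07 for Phgdh (1.21-fold) and 0.44 ± 0.11 for Mthfd2 (1.35-fold; SE, n = 3), and limma's adjusted p 0.0661 and 0.0523.

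Both lay close to the threshold and crossed it with an intensity trend in the prior, at 0.00625 for Phgdh and 0.0288 for Mthfd2 within ranges of 0.00625 to 0.764 and 0.0288 to 0.36 over their alternatives. The second Mthfd2 probe set gave 0.53. Of 4 Phgdh probe sets, 3 gave 0.27 to 0.41 without overlap between the groups, and the fourth gave -2.36, with N1IC replicate 1 at 5.55 and the other 5 arrays at 12.81 or higher. All 4 are of the x_at kind, whose probes may match other transcripts, so they need not be independent. On their brightest probe sets the neighbouring steps had smaller log2 fold changes than these genes, but the difference between genes was not tested. Psat1, the second enzyme of serine synthesis, had a log2 fold change of 0.10 (95% interval -0.16 to 0.36), and Psph, the third, -0.18 (-0.58 to 0.22). Shmt2, which passes a carbon from serine to folate in mitochondria, stood at 11.21, 11.28 and 11.28 in WT and 11.29, 11.39 and 11.34 in N1IC. These groups did not overlap, although the log2 fold change of 0.09 did not pass (limma, adjusted p = 0.495). The 4 Shmt2 probe sets lay between 0.08 and 0.26, and the one at 0.26 was also without overlap. Shmt1, its cytosolic counterpart, was at 0.00 (-0.45 to 0.45).

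Asns, which makes asparagine and is a standard readout of amino acid shortage, stood at 11.20, 10.93 and 11.25 in WT and 11.23, 10.94 and 10.30 in N1IC. N1IC replicate 3 was the lowest array and the other N1IC arrays lay within the WT range. The log2 fold change was -0.31 ± 0.24 (SE, n = 3), with a 95% interval from -0.90 to 0.29, and both Asns probe sets gave nearly the same value. Aldh18a1, at the start of proline synthesis, was at 0.03 and its 5 probe sets lay between 0.01 and 0.14. The transaminases Gpt2 and Got1 were at -0.33 and -0.16. Bcat1, which acts on branched-chain amino acids, varied within both groups, from 9.67 to 10.74 in WT and from 9.72 to 11.28 in N1IC, so that its interval ran from -1.23 to 1.15. The enzymes that turn homocysteine into cysteine were at 0.04 for Cbs (-0.15 to 0.23) and -0.36 for Cth (-1.51 to 0.80), which was dim, with no array above 5.83.

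Of 9 transporters, 1 rose and none fell (11.1% called, against 11.8% of all genes), and the median log2 fold change was 0.14. Slc7a11 imports cystine in exchange for glutamate and feeds glutathione synthesis. It stood at 3.32, 3.52 and 3.41 in WT and at 4.53, 3.99 and 4.03 in N1IC. The groups did not overlap, but all 3 WT values and 2 of 3 N1IC values lay below the lower quartile of probe set intensities on the arrays, 4.43 to 4.49. Its level was 1.70-fold higher (log2 fold change 0.77 ± 0.16, SE, n = 3), and limma's adjusted p was 0.0351. A second dim Slc7a11 probe set gave 0.09 with an adjusted p of 0.755 over all probe sets. The call was lost without any single array other than N1IC replicate 1, at adjusted p of 0.0833, 0.0733 and 0.104 without WT replicates 1, 2 and 3 and 0.0535 and 0.07 without N1IC replicates 2 and 3, within a range of 0.0204 to 0.311 over 16 alternatives. With 16 added to each intensity before log2, its log2 fold change was 0.36 and the adjusted p 0.0649.

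Slc3a2, the heavy chain that Slc7a11 and Slc7a5 need at the cell surface, stood at 11.88, 11.77 and 11.92 in WT and 11.92, 11.93 and 12.22 in N1IC. Its groups did not overlap by a narrow margin, and its log2 fold change was 0.17 (limma, adjusted p = 0.408). Slc7a5 (LAT1), which imports leucine and other large neutral amino acids, was at 0.15 (95% interval -0.11 to 0.41). Slc7a1, a transporter of arginine and lysine, was bright and at 0.00 (-0.19 to 0.18), while its dimmest probe set gave 0.56 with an adjusted p of 0.0485 over all probe sets, at 3.96 to 4.22 in WT and 4.48 to 4.82 in N1IC. The glutamine carriers Slc38a1 and Slc38a2 were at 0.07 and 0.23, and all 3 Slc38a2 probe sets were above 0, up to 0.73. The Slc38a2 probe set at 0.73 had N1IC wholly above WT and an adjusted p of 0.099 over all probe sets. A dimmer Slc38a1 probe set gave 0.38, with N1IC wholly above WT and an adjusted p of 0.094 over all probe sets. Slc1a5 (ASCT2), which exchanges glutamine for other neutral amino acids, was at -0.41 (-0.98 to 0.16), and its relative Slc1a4 at 0.14 (-0.45 to 0.74).

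Slc6a9 (GLYT1), a glycine transporter that erythroid cells use for heme synthesis, stood at 8.83, 9.02 and 9.33 in WT and 8.51, 7.76 and 8.60 in N1IC. All N1IC arrays lay below WT, yet the log2 fold change of -0.77 ± 0.26 (SE, n = 3) did not pass limma's test (adjusted p = 0.118). The dimmer Slc6a9 probe set gave 0.10.

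Among the 12 tRNA synthetases, 1 fell and none rose (8.33% called, against 11.8% of all genes). Their median log2 fold change was 0.02, and the pooled SDs within groups were at most 0.17. Cars stood at 8.88, 8.81 and 9.04 in WT and 8.36, 8.53 and 8.44 in N1IC. All N1IC arrays were below all WT arrays, and the level was 1.38-fold lower (log2 fold change -0.47 ± 0.09, SE, n = 3; limma, adjusted p = 0.0294). Its dimmer probe set gave 0.22, in the other direction, with an adjusted p of 0.36 over all probe sets. The call was lost without any single array, at adjusted p of 0.0608, 0.0515 and 0.0799 without WT replicates 1, 2 and 3 and 0.0964, 0.0587 and 0.0927 without N1IC replicates 1, 2 and 3, and the range over 17 alternatives was 0.0211 to 0.456.

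Aars, the alanyl-tRNA synthetase, stood at 10.55, 10.52 and 10.72 in WT and 10.86, 10.83 and 11.20 in N1IC. Tars, for threonine, stood at 11.46, 11.46 and 11.51 in WT and 11.60, 11.65 and 11.73 in N1IC, and Wars, for tryptophan, at 11.18, 11.14 and 11.10 in WT and 11.24, 11.36 and 11.26 in N1IC. In each of these the N1IC arrays lay wholly above WT, although the log2 fold changes were 0.36, 0.18 and 0.15 and limma's adjusted p 0.138, 0.183 and 0.284. All 4 Wars probe sets were without overlap, at 0.15 to 0.43. The brightest and a dimmer Wars probe set are of the x_at kind, whose probes may match other transcripts. Yars, for tyrosine, was at 0.22 with 1 WT array above the lowest N1IC array. The remaining 7, Eprs, Iars, Mars1, Gars, Sars, Nars and Lars, lay between -0.11 and 0.10, and their 95% intervals all lay between -0.5 and 0.5. A second Nars probe set gave 0.30 against -0.05 on the brightest. The dimmest of 4 Eprs probe sets gave 0.82, with N1IC wholly above WT and an adjusted p of 0.0686 over all probe sets, against 0.10 on the brightest.

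**Figure D3:**
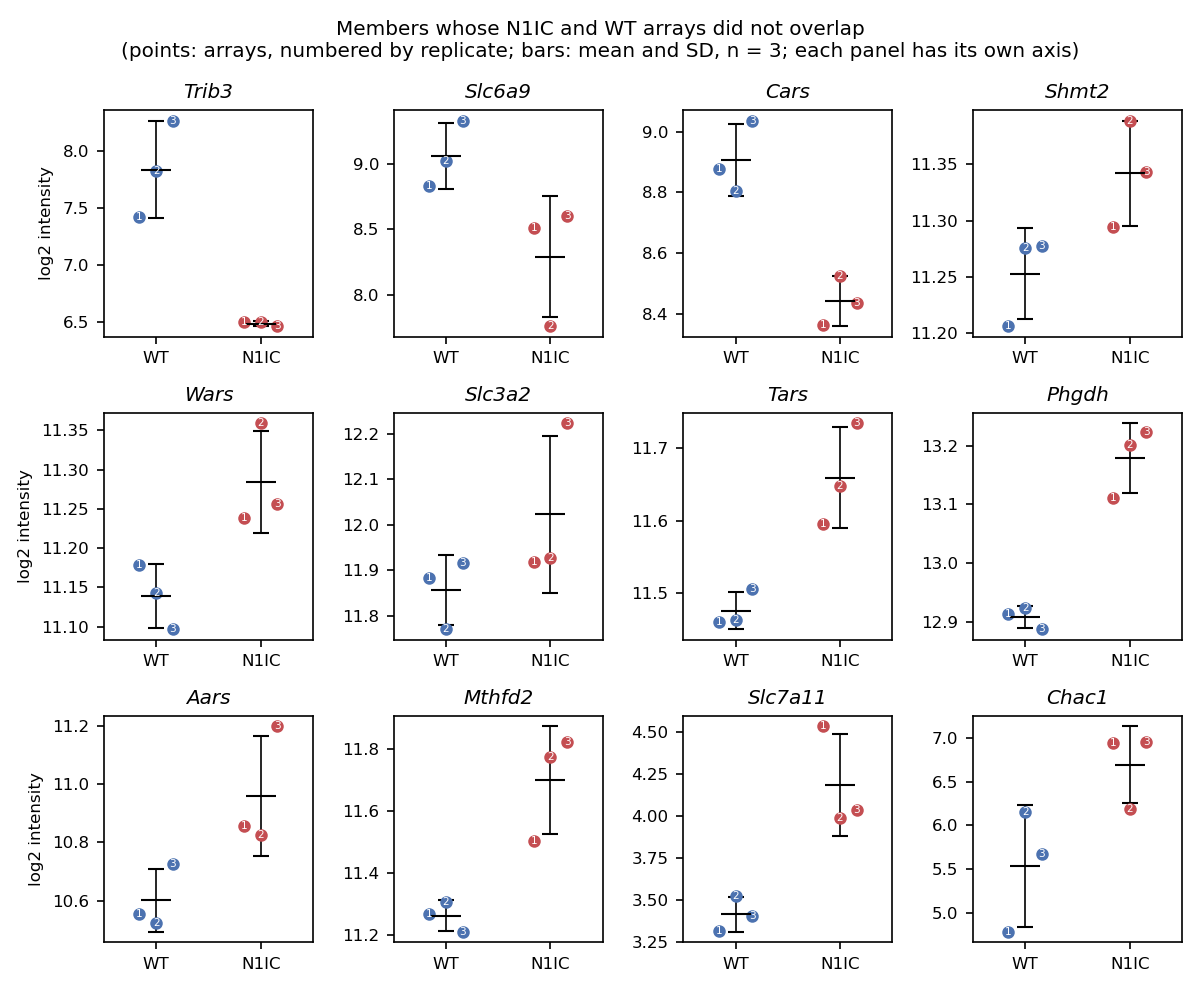
Log2 intensity on each array (points, numbered by replicate) of the 12 members whose N1IC and WT arrays did not overlap, with the mean and SD of each group as bars (n = 3); each panel has its own axis, so heights cannot be compared between panels. Trib3, Slc6a9 and Cars are lower in N1IC and the other 9 are higher, but only Trib3, Cars and Slc7a11 passed the test.

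Members with the Atf4 element in the window were split. Of 12 measured, 1 rose and 1 fell, while 11.8% of all genes tested were called. The median log2 fold change of the 12 was 0.16, with a range from -1.35 to 1.16. Of 24 measured members with a window and no match, none was called by limma and 3 had an unadjusted p under 0.05, against 5 of the 12 and 26.6% of all genes. Their median was 0.03, from -0.77 to 0.44. The 8 members with no window had a median of -0.08. The difference between these sets was not tested.

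Further genes of these pathways were read from 8 lists. Together 4 of 184 measured genes rose and 19 fell, or 12.5% against 11.8% of all genes. Of 30 other amino acid transporters, 1 rose and 7 fell, 26.7% of the list. Slc1a1, a glutamate and cysteine carrier, was 7.67-fold lower, at 4.21, 3.81 and 5.71 in N1IC against 7.39, 7.08 and 8.07 in WT. The first and second of these N1IC values lay below the arrays' lower quartile of 4.43 to 4.49, so the size of this fold is uncertain. Slc7a7, which pairs with Slc3a2 to export basic amino acids, was 2.66-fold lower, and Slc7a2, a carrier of arginine, 2.36-fold lower. The lysosomal carriers Slc36a1 and Slc36a4 fell by 0.66 and 0.87 on the log2 scale, Slc7a4 by 0.92, and the remaining faller was Slc43a1. The riser was Slc16a10, a carrier of aromatic amino acids, at 0.60. Adjusted p of the named transporters lay between 0.0036 for Slc7a4 and 0.0398 for Slc43a1 by limma. With sex as a covariate 0 of this list fell, and with 1 array left out 3 to 6 did, the fewest without WT replicate 2 or 3 or N1IC replicate 1 or 2.

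Of 27 genes of mTORC1 and amino acid sensing, 1 rose and 5 fell, or 22.2% of the list against 11.8% of all genes. Deptor, an inhibitor inside mTOR complexes, was 3.18-fold higher, at 12.84, 12.87 and 12.92 in N1IC against 11.71, 10.64 and 11.28 in WT (adjusted p = 0.0135 by limma). The sestrins Sesn1 and Sesn3, stress proteins that restrain mTORC1, fell by 0.91 and 0.74 on the log2 scale, Tsc2, which inhibits Rheb, by 0.46, Tfeb, a lysosomal transcription factor, by 0.93, and Nprl3, part of the GATOR1 complex, by 0.40. Inhibitors of mTORC1 were thus among the genes that rose and among those that fell. With sex as a covariate 0 fell, and with 1 array left out 1 to 4 did, the fewest without N1IC replicate 1. Without N1IC replicate 1 or 3, Deptor was not called.

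Of 31 other targets and partners of Atf4, 1 rose and 3 fell, or 12.9% of the list, near the 11.8% of all genes. Pmaip1 (NOXA), a BH3-only activator of cell death, was 3.39-fold higher, Vldlr, a lipoprotein receptor, 25.4-fold lower, and Gabarapl1, of autophagy, 1.33-fold lower. Vldlr stood at 10.51, 10.25 and 10.31 in WT and 5.89, 5.67 and 5.50 in N1IC, the widest gap of any gene named here. The Atf4 partners Cebpb and Cebpg and the translation inhibitor Eif4ebp1 were not called, with log2 fold changes of -0.28, -0.07 and -0.40 and adjusted p of 0.258, 0.641 and 0.0603 by limma. Of 17 other genes of eIF2 alpha signalling none was called by limma, and 1 had an unadjusted p under 0.05, against 11.8% and 26.6% of all genes. Among them, Eif2ak2 (PKR), the kinase that senses double-stranded RNA, was at -0.13 (95% interval -0.69 to 0.43). Of 26 genes of the unfolded protein response, 1 fell, or 3.85% against 11.8% of all genes. It was Ern1 (IRE1 alpha), which fell by 0.62 on the log2 scale (limma, adjusted p = 0.0491). Its target Xbp1 was at 0.14 and Hspa5 (BiP), the main chaperone of the endoplasmic reticulum, at 0.12, neither called.

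Of 28 other enzymes of amino acids and folate, Mtrr, which keeps methionine synthase active, rose by 0.41, and Bckdha, of branched-chain amino acid breakdown, fell by 0.71 on the log2 scale. Vars, for valine, was the only one called of 10 other cytosolic synthetases and scaffold genes, and fell by 0.67. Pars2, for proline, was the only one called of 16 mitochondrial synthetases, and fell by 0.36. The shares called of these lists were 7.14%, 10% and 6.25% in turn, none above the 11.8% of all genes. With sex as a covariate 3 of the 184 genes were called, when calls over all genes also fell, to 2.47%. With 1 array left out 10 to 19 were, beside 6.41% to 10.6% of all genes. The lowest counts, 10 or 11, came from leaving out N1IC replicate 1 or 3 or WT replicate 2 or 3. All N1IC mice were female and WT replicate 2 was the only WT female, so that the fit with sex rests on this WT array.

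**Figure D4:**
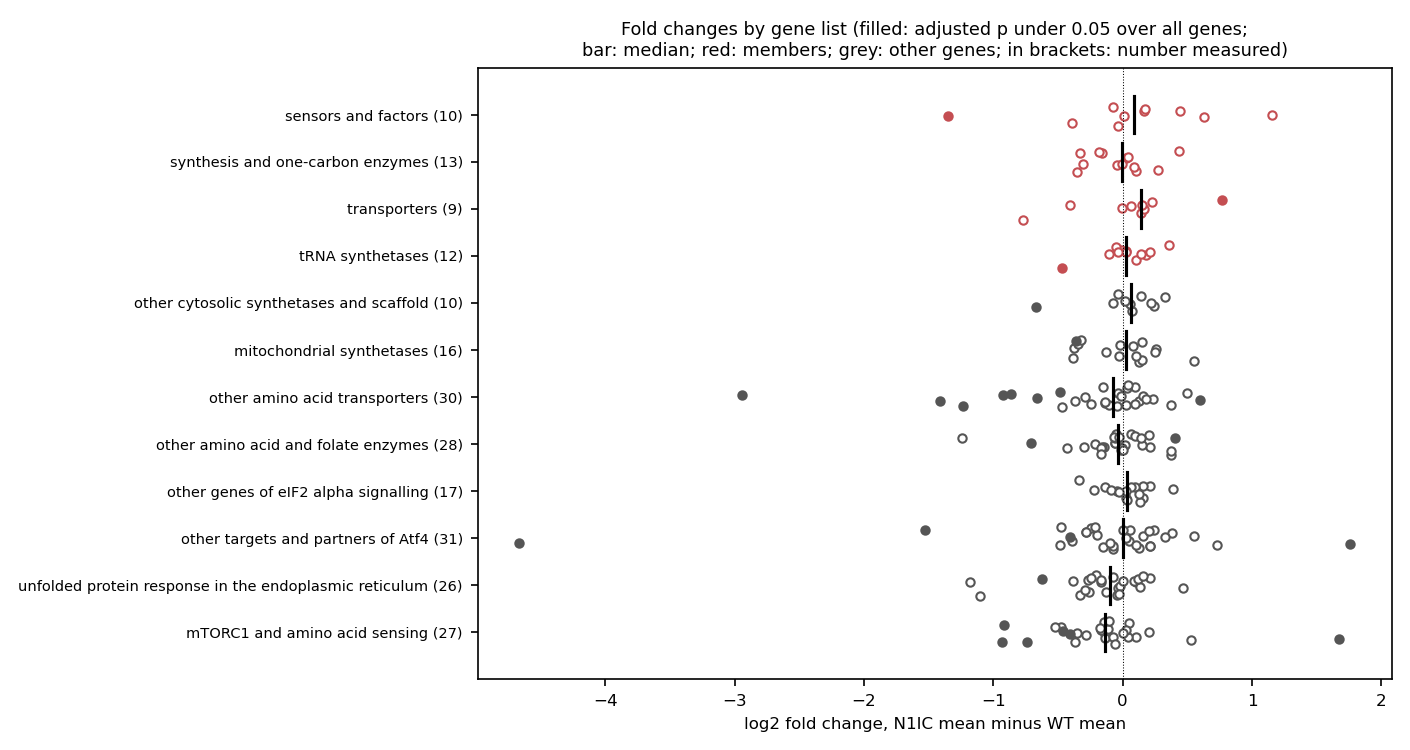
Log2 fold change, N1IC mean minus WT mean, of every measured gene in the 4 roles of the members (red) and in 8 lists of further genes (grey), with the number measured in brackets; black bars are medians and filled points passed the adjusted p of 0.05 over all genes. All medians lie between -0.13 and 0.14, and the filled points of other amino acid transporters lie mostly below 0.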

How the data were processed

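Total RNA (5 ng) of LSK cells from 3 WT and 3 N1IC mice was amplified and hybridised, 1 array per mouse, per the labels' protocols. The authors deposited probe set intensity values on a linear scale, made with RMA per the submitters' processing notes, and its version is not given in the sources used here. Log2 was taken before any test, and detection calls were not used here. Of 45101 probe sets, 34945 had 1 symbol, 932 several and 9160 none, and 64 were controls. Symbols were updated through RefSeq (GRCm38.p6) for 34741, and each of 18193 genes took its brightest probe set.

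Groups were compared by a two-sided moderated test without covariates (limma 3.58.1, R 4.3.3), with 4 residual and 2.05 prior degrees of freedom and Benjamini-Hochberg adjustment over all genes. In simulated data with 18193 genes, 100 were changed by 1 on the log2 scale and 100 by 2, and this comparison recovered 67% and 87%. In the measured data a larger share of genes, 11.8%, was called. The adjustment depends on that share, so these recovery rates need not carry over. Tables were handled with pandas 2.3.3, and plots drawn with matplotlib 3.10.9.

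The members and lists were chosen with earlier results of these data known. Members were given array by array when called or without overlap, and from each further list up to 6 called genes and 6 preset genes were named. 1 called gene of the Atf4 list is not reported here. Other genes were named after their values were seen, among them Slc43a1, Slc16a10 and the members described for their spread. Alternatives were a block for the replicate number, a sex term, female mice only, normalization, brightness, probe set summary, prior, array weights, an offset, other thresholds and leaving out each array. Replicate numbers are not stated to pair mice. Littermates are named in the design text but not matched in the labels.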

Additional observations from a re-analysis of the deposited data

How the results depend on the processing

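Members called numbered at most 3 higher and 2 lower under every setting, and the share of all genes called moved with the setting too, from 11.8% to 7.11% with the block, 2.47% with sex, 3.55% with female mice only, 19.5% with the brighter 60%, 4.09% at an adjusted p of 0.01, 17.9% at 0.1 and 6.41% to 10.6% with 1 array left out. With the replicate number as a block it was 0 higher and 1 lower (0 transporters, 0 synthetases), with sex as a covariate 0 and 0 (0 in each role), and with female mice only 0 and 1 (0 transporters, 0 synthetases). Both of the last set N1IC against WT replicate 2 alone and give the same fold changes, and in the female-only fit that array is assumed to vary like the N1IC arrays. With the brighter 60% of genes it was 2 higher, both synthesis enzymes (2 called), with 0 transporters, since 41 members remained and Slc7a11 was not among them. With the mean of all probe sets 1 was lower and 0 synthetases were called. With an intensity trend 3 were higher and 1 lower, with 2 synthesis enzymes and 0 synthetases, and with an offset of 16, 2 were higher, with 2 synthesis enzymes and 0 transporters. At an adjusted p of 0.01 none was called (0 higher, 0 lower, 0 in each role), and at 0.1, 3 were higher and 2 synthesis enzymes were called. With 1 array left out, members called ranged from 0 to 2 higher and 0 to 1 lower, with 0 to 1 of the sensors and factors, 0 to 1 of the synthesis enzymes, 0 to 1 of the transporters and 0 to 0 of the synthetases. Genes called in the 8 further lists, 23 in all, were 11 with the block, 3 with sex, 4 with female mice only, 5 at 0.01 and 10 to 19 with 1 array left out. By probe set, Cars turned to 0.22 and Slc7a1 to 0.56. The cause of these shifts was not tested. Of 745 fold changes of members under other settings, 707 kept their call or lack of one, with any change of sign within the spread. Among all 745, 51, of 17 uncalled members, changed sign, most of them counted in the 707, and 9 of the 51 moved by more than the spread. The block moved the count of all genes from 2144 to 357 higher and 936 lower. Deviations from the group means correlated at -0.09, -0.07 and 0.07 for same-numbered arrays, and at -0.14 to 0.16 for the other pairs across groups. With 3 arrays per group this cannot decide whether the numbers pair mice. The number of arrays, 3 per group, limits the precision.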

Other observations

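One Phgdh probe set fell far from the others on a single array. It stood at 5.55 on N1IC replicate 1 and at 12.81 or higher on the other 5 arrays, a gap of 7.25 on the log2 scale. Of 45037 probe sets, 6 lay at least 4 log2 units below all other arrays on 1 array, with 0 to 2 per array, and 9 lay that far above. With the mean of all probe sets, this value turned the log2 fold change of Phgdh from 0.27 to -0.33.

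On its brightest probe set, the spread of Trib3 also differed between the groups, with an SD of 0.42 among WT arrays and 0.02 among N1IC arrays. On the other Trib3 probe set the SDs were 0.37 among WT arrays and 0.25 among N1IC arrays. The difference in spread was not tested.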
